A study of Homo sapiens with 8 samples.

Results

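The genes described here are 9 members of the BCL2 family and the caspase gene CASP2, read in RNA-seq of 2 esophageal squamous cell carcinoma lines in which the LIM-homeodomain gene LHX2 had been knocked down. The list was selected by gene symbol, with measured fold changes of the same comparison already known, and it holds 10 of 26008 genes in the KYSE30 table and 10 of 25561 in the KYSE510 table. By role, it holds the anti-apoptotic genes BCL2L1 and MCL1, the effectors BAX and BAK1, the BH3-only genes BID, BIK, BBC3, PMAIP1 and BCL2L11, and CASP2. KYSE30 and KYSE510 are established human cell lines. In each, 2 libraries carried an shRNA against LHX2 (shLHX2) and 2 carried a control shRNA (shNC), 8 libraries in all. All 8 received a lentiviral shRNA vector and went through puromycin selection, and the genotype label of the control libraries is wild type. The cells were stable knockdown populations, and the sources used here do not tell which hairpin each shLHX2 library carries. The knockdown values of the 10 genes are therefore a description and carry no test.

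BCL2 family proteins decide whether the outer membrane of the mitochondrion is opened. The effectors BAX and BAK1 form the pores, BCL2L1 (BCL-XL) and MCL1 bind and hold them, and the BH3-only proteins are switched on by stress and either block the anti-apoptotic members or activate the effectors. Cytochrome c that leaks out then starts the apoptosome and the executioner caspases. CASP2 is an initiator caspase that is activated on the PIDDosome after DNA damage or centrosome amplification and can cleave BID.

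After LHX2 knockdown, CASP2 transcripts were higher in both lines, 1.57-fold in KYSE30 and 1.64-fold in KYSE510, and MCL1 was lower in both, at 69.6% and 88.0% of the control level. BBC3 (PUMA) stood at 57.1% of control in KYSE30 and at 82.5% in KYSE510, and only the first of these had an adjusted p under 0.05 in the authors' test, the cut used here for a call. BCL2L11 (BIM) was called lower in KYSE30 alone by that cut, at 75.6% against 105% in KYSE510. The effectors BAX and BAK1 lay between 96.7% and 108% of control in both lines.

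The promoters of the gene that was higher and of the gene with the lowest ratio to control are shown, since both moved in KYSE30 and in opposite directions. Each is 300 bases, from 250 before to 50 after an annotated start, taken from RefSeq on GRCh38.p14. CASP2 has 2 such starts in that table and the first is given, at chr7:143288101-143288400 on the plus strand. The BBC3 promoter is at chr19:47232618-47232917 on the minus strand. Capitals mark the CCAAT box (CCAAT or, on the other strand, ATTGG), the GC box (GGGCGG or CCGCCC) and the homeodomain core TAATTA.
CASP2: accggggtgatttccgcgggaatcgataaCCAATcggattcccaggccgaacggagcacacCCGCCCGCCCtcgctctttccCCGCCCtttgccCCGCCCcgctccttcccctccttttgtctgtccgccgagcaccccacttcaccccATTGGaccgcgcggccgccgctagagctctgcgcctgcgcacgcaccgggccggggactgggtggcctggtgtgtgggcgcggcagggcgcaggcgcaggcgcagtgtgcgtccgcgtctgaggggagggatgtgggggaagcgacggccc
BBC3: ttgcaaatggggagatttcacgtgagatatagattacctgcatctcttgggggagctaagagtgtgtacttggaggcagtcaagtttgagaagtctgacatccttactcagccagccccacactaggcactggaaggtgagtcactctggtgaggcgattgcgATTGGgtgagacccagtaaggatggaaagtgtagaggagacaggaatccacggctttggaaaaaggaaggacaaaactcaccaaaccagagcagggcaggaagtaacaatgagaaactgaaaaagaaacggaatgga
The CASP2 window holds 2 CCAAT boxes and 4 GC boxes, of which one pair overlaps, and the BBC3 window holds 1 CCAAT box and 0 GC boxes. Promoters were matched by symbol for 8 of the 10 genes, 14 promoters in all, and MCL1 and BIK were not matched. Of these 14, 5 held a CCAAT box, against 34.6% of the 35116 promoters of the table, and 10 held a GC box, against 45.0%. BID alone has 5 of the 14 windows, and these overlap, so the same GC boxes were counted more than once. The 14 are therefore not separate promoters, and no excess is read from these shares. The homeodomain core stood in 1 of the 14, the third start of BID, against 4.84% of all promoters. These are matches of letters and say nothing of binding.

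The 2 deposited tables hold the authors' DESeq2 results and no value for single libraries. Reads of each library were worked back from the mean, the fold change and its standard error of each gene, which left exactly 1 set of whole reads for all 10 genes in both lines. The 2 libraries of a group are called a and b, in order of falling size factor, since they could not be tied to the replicate numbers of the labels. A normalized count is the reads divided by the size factor of the library, and size factors ran from 0.9461 to 1.078 in KYSE30 and from 0.9019 to 1.201 in KYSE510. The mean normalized counts summed to 18937970 and 19198673. The 10 genes took between 141 and 10737 reads in a library. Over 68 genes, the squared difference between the 2 libraries of a group was on average 1.76 to 2.66 times the sampling variance, so no pair agreed within sampling noise. The sources do not say whether they came from separate cultures, and errors here cover the spread between these libraries. Values of KYSE510 were divided by 1.013, the median ratio of levels between the lines, wherever levels are given below.

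LHX2 itself was read from few reads. Its normalized counts were 99.2 and 118 in the KYSE30 shNC libraries and 29.7 and 50.2 in the shLHX2 libraries, a log2 fold change of −1.45 ± 0.34 (SE, n = 2 against 2) with an adjusted p of 1.23e-04 in the authors' DESeq2 test. In KYSE510 the counts rested on 14 and 8 reads under shNC and on 13 and 1 read under shLHX2. There the log2 fold change was −0.97 ± 1.16, and the gene was too low to be given an adjusted p. The 2 groups of KYSE510 overlapped in this gene. The paper also checked the LHX2 knockdown of both lines by qRT-PCR and Western blotting, which do not rest on these reads. Of 6 squamous epithelial markers, 0 lay below a mean of 10 normalized counts in either line, though KRT5 was at 12.9 in KYSE30 against 30946 in KYSE510. Of 9 immune, endothelial and fibroblast markers, 5 lay below 10 or were not analysed here in each line, PTPRC (CD45) at 6.01 and 1.83 among them. The other 4 lay above, with CD68 at 99.1 in KYSE30 and 379 in KYSE510, CDH5 at 157 and 239, COL1A1 at 268 and 739, and VWF at 14.3 and 27.8. Of the 9, CD3E and DCN were not analysed here in KYSE30.

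**Figure D1:**
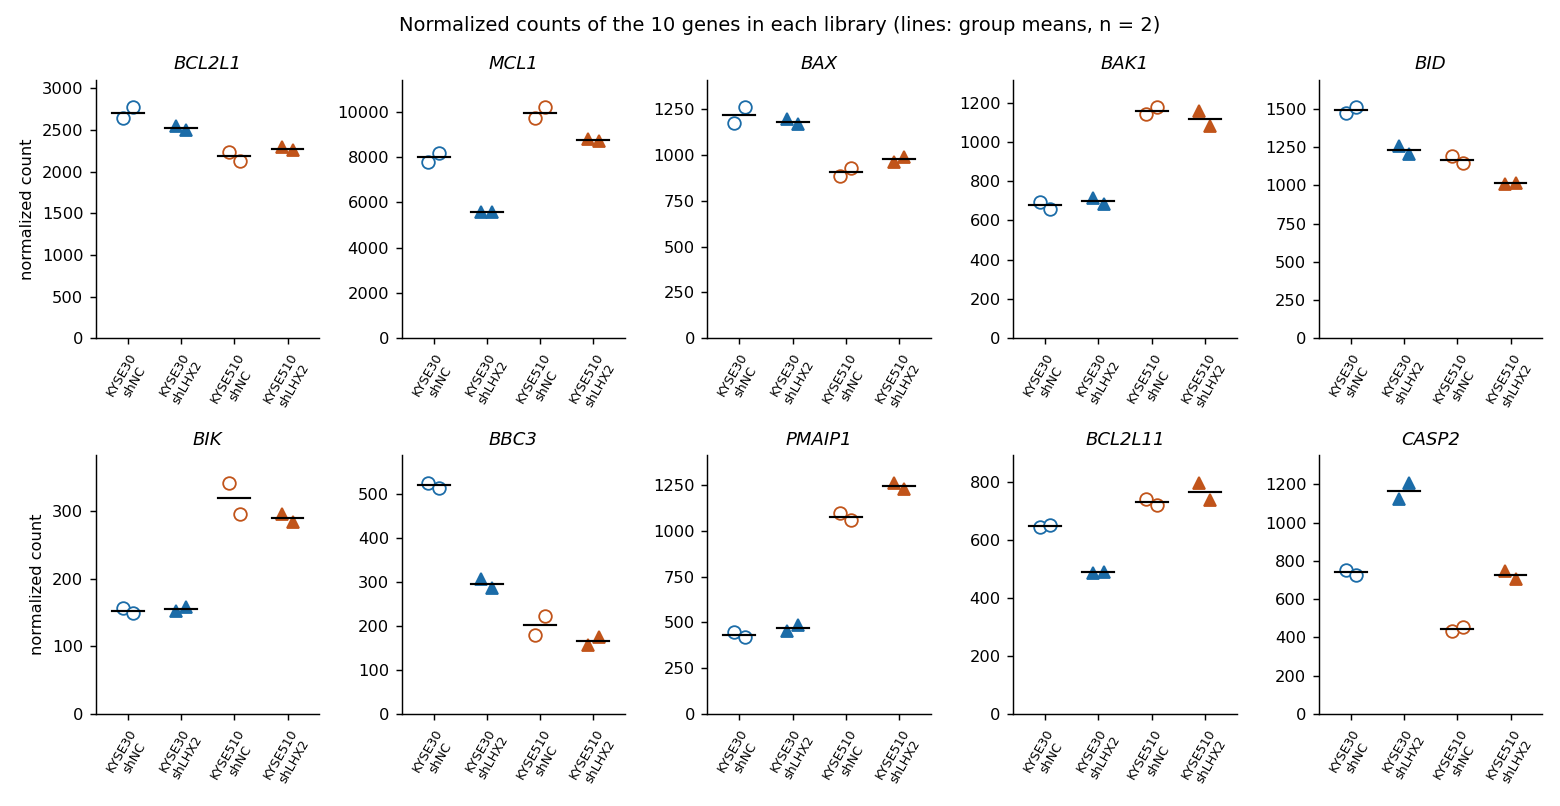
Normalized counts of the 10 genes in all 8 libraries, with a panel for each gene and a linear axis from 0. Open circles are shNC libraries, filled triangles shLHX2 libraries, blue is KYSE30, orange is KYSE510 (divided by 1.013), and black lines are group means of 2 libraries. CASP2 is higher under shLHX2 in both lines, MCL1 is lower in both, and BBC3 and BCL2L11 are lower under shLHX2 in KYSE30, with KYSE510 groups that nearly touch (BBC3) or overlap (BCL2L11).

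The anti-apoptotic pair differed from each other. MCL1, a short-lived protein whose transcript is also turned over quickly, had 7803 and 8207 normalized counts in the KYSE30 shNC libraries and 5570 and 5577 under shLHX2. In KYSE510 it had 9750 and 10200 under shNC and 8825 and 8733 under shLHX2. Both shLHX2 libraries were below both controls in each line, and the gap was several times the distance between libraries of a group in KYSE30. The authors' log2 fold change was −0.52 ± 0.04 in KYSE30 and −0.18 ± 0.04 in KYSE510. BCL2L1, which encodes BCL-XL, had 2647 and 2770 counts under shNC and 2547 and 2501 under shLHX2 in KYSE30. Its KYSE510 libraries stood at 2230 and 2133 against 2296 and 2254. The groups kept apart by a small margin, below control in KYSE30 and above it in KYSE510, at −0.10 ± 0.05 and 0.06 ± 0.07 on the log2 scale, and neither was called. Exons of BCL2L1 share 43.0% of their bases with the antisense gene ABALON, whose mean was 34.1 in KYSE30 and 25.8 in KYSE510. The sources used here do not state whether strand entered the counting.

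The effectors gave no call in either line. BAX had 1177 and 1261 counts under shNC and 1197 and 1170 under shLHX2 in KYSE30. In KYSE510 its values were 884.8 and 928.9 against 964.9 and 992.6. The KYSE30 groups overlapped, while the KYSE510 shLHX2 libraries lay above their controls at a log2 fold change of 0.11 ± 0.10. BAK1 ran from 658.5 to 711.4 over the KYSE30 libraries and from 1079 to 1175 over those of KYSE510. The groups overlapped in both lines, and the log2 fold changes were 0.04 ± 0.09 and −0.05 ± 0.10. The human genome holds a processed pseudogene of BAK1 with near-identical sequence, so that its reads may have been split or shared in the counting.

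Among the BH3-only genes, BBC3 had the lowest ratio to control. It encodes PUMA, a protein that binds all anti-apoptotic members. Its KYSE30 counts were 524.1 and 513.7 under shNC and 307.0 and 285.3 under shLHX2. In KYSE510 they were 180.3 and 222.1 against 157.0 and 175.3. The KYSE30 groups stood far apart and the KYSE510 groups nearly touched, with log2 fold changes of −0.81 ± 0.12 and −0.28 ± 0.24. Without a single library in turn the KYSE510 value ran from −0.42 to −0.12.

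BCL2L11 encodes BIM, a direct activator of BAX and BAK1 that FOXO factors induce and ERK signaling marks for degradation. It had 643.4 and 650.0 counts under shNC and 486.9 and 490.2 under shLHX2 in KYSE30. In KYSE510 it had 741.8 and 721.0 against 795.6 and 737.6. The KYSE30 libraries fell into separate groups with little spread inside each, and in KYSE510 the groups overlapped. The log2 fold changes were −0.40 ± 0.10 and 0.07 ± 0.12. The long noncoding gene MIR4435-2HG lies across BCL2L11 on the opposite strand and shares 10.9% of its exon bases. Its own log2 fold change was 0.31 ± 0.09 in KYSE30 and 0.04 ± 0.23 in KYSE510, and its part in the BCL2L11 values was not tested.

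BID links the death receptors and CASP8 to the mitochondrion once it is cleaved. Its counts were 1474 and 1509 under shNC and 1259 and 1204 under shLHX2 in KYSE30. In KYSE510 they were 1192 and 1144 against 1007 and 1018. Both lines had both shLHX2 libraries below both controls, at −0.28 ± 0.07 and −0.21 ± 0.10 on the log2 scale, and only KYSE30 was called. PMAIP1 encodes NOXA, which binds MCL1 and promotes its degradation. It had 446.0 and 419.6 counts against 455.4 and 485.2 in KYSE30, and 1095 and 1060 against 1260 and 1229 in KYSE510. Both lines had the shLHX2 libraries above their controls, at 0.12 ± 0.11 and 0.21 ± 0.09, and neither was called. BIK, a BH3-only protein of the endoplasmic reticulum, was the least abundant of the 10 by reads in KYSE30, with 149.0 to 158.7 counts over the 4 libraries and overlapping groups. In KYSE510 it had 341.9 and 296.5 against 295.9 and 284.2, at −0.14 ± 0.18, and 1 shNC library was within 1 count of the higher shLHX2 library.

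CASP2 had 754.6 and 727.2 normalized counts under shNC and 1122 and 1206 under shLHX2 in KYSE30. In KYSE510 it had 431.0 and 454.1 under shNC and 747.1 and 703.4 under shLHX2. In both lines the shLHX2 libraries stood well clear of the controls, and the knockdown level of KYSE510 came close to the control level of KYSE30. The log2 fold changes were 0.65 ± 0.08 and 0.71 ± 0.13, and leaving out single libraries moved them between 0.60 and 0.70 and between 0.67 and 0.76. CASP2 lies on chromosome 7 from 143288215 to 143307696 on the plus strand (GENCODE 29, hg38) and its exons cover 8020 bases. MCL1 lies on chromosome 1 from 150574551 to 150579738 and BBC3 on chromosome 19 from 47220822 to 47232766, both on the minus strand.

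**Figure D2:**
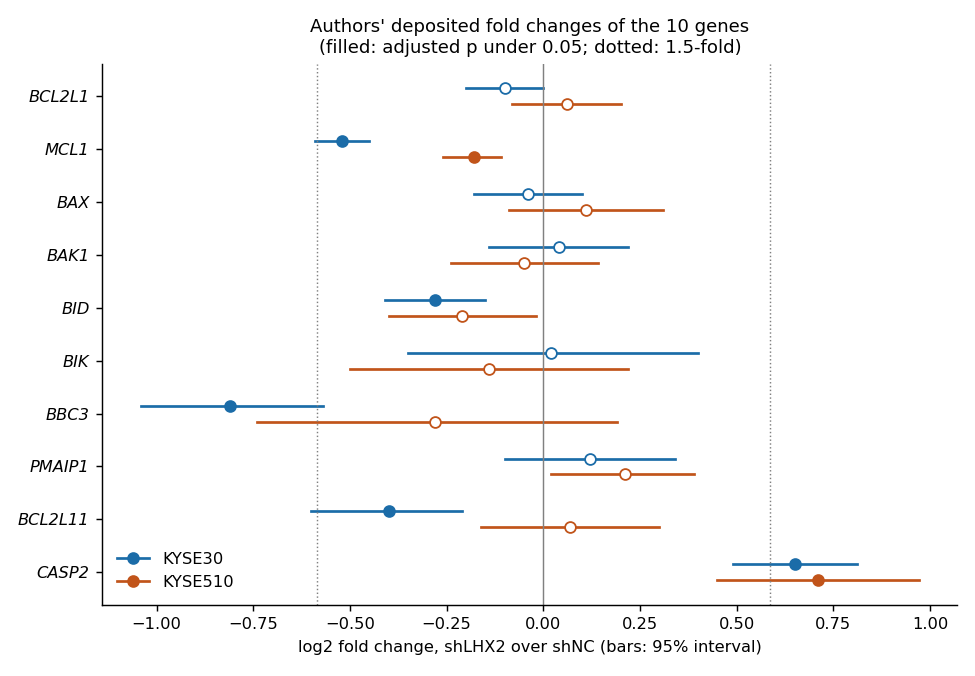
The authors' deposited log2 fold change of each gene, shLHX2 over shNC, with its 95% interval, for KYSE30 in blue and KYSE510 in orange. Filled points had an adjusted p under 0.05 and dotted lines mark 1.5-fold; only CASP2 (0.65 and 0.71) lies past the upper line in both lines, and BBC3 in KYSE30 (−0.81) is the single value past the lower one.

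At the authors' adjusted p under 0.05, 1 of the 10 genes was called higher in KYSE30 (CASP2) and 4 were called lower (MCL1, BID, BBC3 and BCL2L11). Of all 15923 genes tested in that line, 13.9% were called higher and 15.7% lower. In KYSE510, 1 was called higher (CASP2) and 1 lower (MCL1), where 7.89% of 12676 genes were called higher and 10.8% lower. Since the list was drawn up with this comparison in view, nothing is read from these shares. Both shLHX2 libraries lay above both controls for 2 of the 10 genes in KYSE30 and below them for 5. In KYSE510 they lay above for 4 and below for 4. With 2 libraries against 2, a gene that does not change can also separate. How many of all genes did so was not computed, so separation alone is not read as a response. The median log2 fold change of the 10 was −0.07 in KYSE30 and 0.01 in KYSE510, beside 0.00 over all tested genes of each line. Of 14 reference genes commonly used to scale expression, the median was 0.14 and 0.09. By role, 3 of 5 BH3-only genes were called lower in KYSE30 and 0 of 5 in KYSE510. Their log2 fold changes in KYSE510 ran from −0.28 to 0.21.

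The responses of the lines were set side by side as the difference of log2 fold changes, KYSE510 minus KYSE30, with a 95% interval and no test. For CASP2 it was 0.06 (−0.24 to 0.37), which leaves room for a difference either way. For MCL1 it was 0.34 (0.23 to 0.45), for BCL2L11 0.47 (0.17 to 0.77) and for BBC3 0.53 (0.01 to 1.05), each with the lower value in KYSE30. The intervals of the other 6 genes included 0, with BIK the widest at −0.68 to 0.36.

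**Figure D3:**
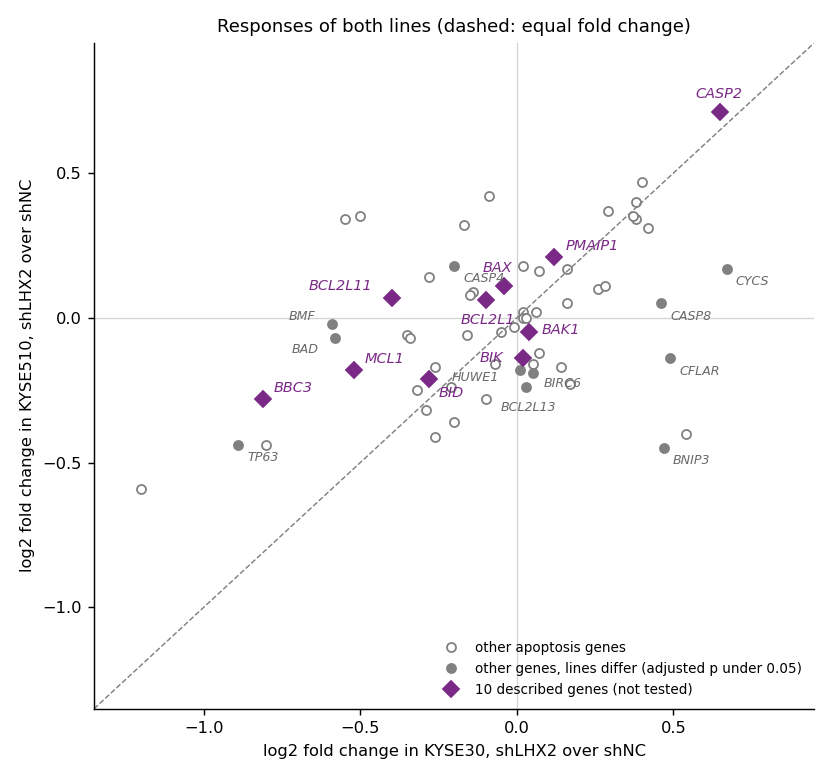
Log2 fold change in KYSE30 (horizontal) against KYSE510 (vertical) for the 10 genes (diamonds) and 55 other apoptosis genes tested in both lines (circles, filled where the lines differed at an adjusted p under 0.05). CASP2 lies near the dashed line of equal change at 0.65 and 0.71, whereas MCL1 (−0.52 and −0.18), BBC3 (−0.81 and −0.28) and BCL2L11 (−0.40 and 0.07) lie above it.

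Levels between the lines were not part of how the genes were chosen and were tested. For each gene the 4 libraries of KYSE510 were compared with the 4 of KYSE30 by a two-sided exact permutation test on log2 normalized counts, which has 70 arrangements and a smallest p of 0.0286. The means of 5 of the 10 were at least 1.5-fold apart, where 48.8% of the 12311 genes tested in both lines were that far apart, so the share is near that of all genes. Every gene but CASP2 had lines that did not overlap, which by itself gives that smallest exact p. How many of all genes would do so was not computed, so nothing particular to these genes is read from it. Each line is a single cell line, so the p covers the spread between these libraries and is no measure across lines. The folds that follow are from means of log2 counts. PMAIP1 was 2.57-fold, BIK 1.97-fold and BAK1 1.66-fold higher in KYSE510. BBC3 was 2.15-fold higher in KYSE30. CASP2 was 1.64-fold higher in KYSE30, with an exact permutation p of 0.0571. Its lines overlapped only because the test pools shNC and shLHX2 libraries, and within the shNC libraries (754.6 and 727.2 against 431.0 and 454.1) and within the shLHX2 libraries (1122 and 1206 against 747.1 and 703.4) both KYSE30 values were the higher ones. The remaining genes were within 1.5-fold. MCL1 was 1.40-fold and BCL2L11 1.33-fold higher in KYSE510, and BAX was 1.27-fold, BID 1.25-fold and BCL2L1 1.17-fold higher in KYSE30. From the shNC libraries alone the log2 difference of BCL2L11 was 0.18 in place of 0.41. For BBC3 it was −1.37 in place of −1.10. The 10 permutation tests are given unadjusted.

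Per kilobase of exon, MCL1 was the most abundant of the 10 in both lines, with a mean of 1553 normalized counts per kb in KYSE30 and 2145 in KYSE510. BCL2L1 came next at 789 and 672. Both anti-apoptotic genes thus stood above the effectors, BAX at 464 and 364 and BAK1 at 310 and 514. The order below differed between the lines. PMAIP1 was at 202 per kb in KYSE30 and at 520 in KYSE510, BIK at 162 and 320, and BID at 306 and 245. The lowest were BCL2L11 in KYSE30 at 85.3 and BBC3 in KYSE510 at 57.8. CASP2 was at 119 and 72.8. The exon length of every gene includes transcripts that a cell need not use, so the order of the 10 is approximate.

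**Figure D4:**
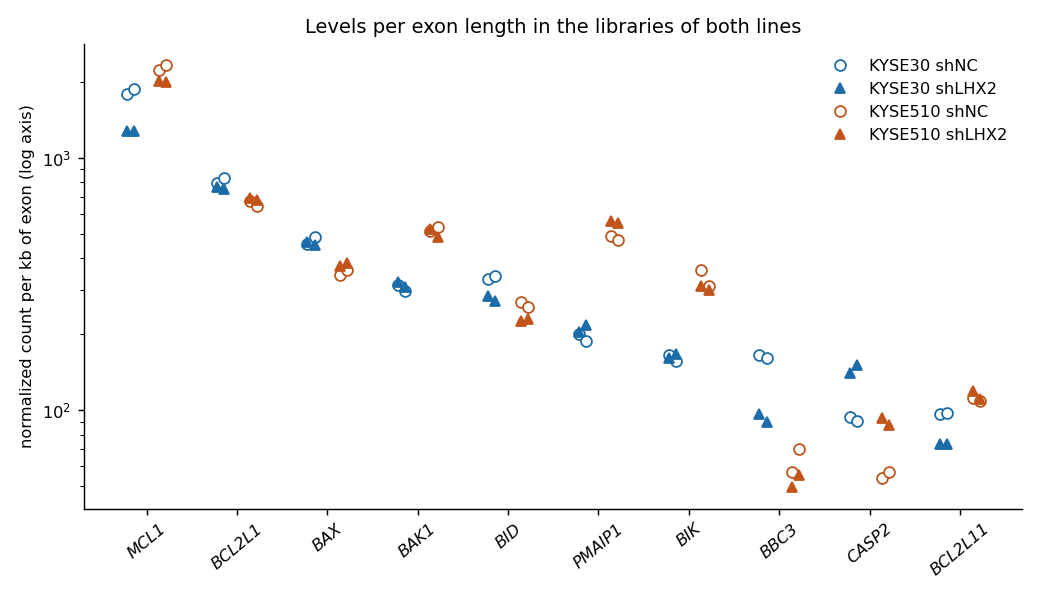
Normalized count per kb of exon for each gene and library, on a log axis, ordered by the KYSE30 mean, with open circles for shNC, filled triangles for shLHX2, blue for KYSE30 and orange for KYSE510. MCL1 is highest in both lines (means 1553 and 2145), and PMAIP1 (202 and 520) and BBC3 (128 and 57.8) sit furthest apart between the lines.

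The rest of the pathway was counted from lists of 62 other apoptosis genes, of which 56 were tested in each line. In KYSE30, 13 were called higher and 12 lower, and in KYSE510, 6 higher and 9 lower. Their median log2 fold change was 0.02 and −0.03. In KYSE30 the shares were 23.2% higher and 21.4% lower, both above those of all genes given earlier, and in KYSE510 they were 10.7% and 16.1%. No test was made of these lists.

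The other BCL2 family genes were 14, with 10 tested in each line. In KYSE30, 2 were called higher and 5 lower, and in KYSE510, 1 higher and 3 lower. Of all tested genes, 13.9% were called higher and 15.7% lower in KYSE30, and 7.89% and 10.8% in KYSE510. These counts are small and the list was not tested. BCL2, the founding anti-apoptotic member, was at −0.80 ± 0.22 on the log2 scale in KYSE30 (adjusted p 0.00190 in the authors' DESeq2 test) and −0.44 ± 0.31 in KYSE510 (adjusted p 0.372). BCL2L2 (BCL-W) was at −0.32 ± 0.07 and −0.25 ± 0.10, called in KYSE30 only. The BH3-only genes BMF (−0.59 ± 0.09) and BAD (−0.58 ± 0.10) fell in KYSE30, while their KYSE510 values were −0.02 ± 0.13 and −0.07 ± 0.15. HRK was at −0.20 ± 0.20 and −0.36 ± 0.16 and the effector-like BOK at 0.17 ± 0.21 and −0.23 ± 0.21, with no call. Among related proteins, BCL2L12 rose in both lines, 0.29 ± 0.09 and 0.37 ± 0.10. The mitophagy receptor BNIP3L fell in both, −0.26 ± 0.06 and −0.41 ± 0.07. BNIP3, another mitophagy receptor and hypoxia target, rose in KYSE30 (0.47 ± 0.09) and fell in KYSE510 (−0.45 ± 0.09).

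Of the other caspases, CASP8, the initiator of the death receptor pathway, rose in KYSE30 (0.46 ± 0.11) and was at 0.05 ± 0.09 in KYSE510. The inflammatory caspase gene CASP4 fell in KYSE30, by 0.20 on the log2 scale. In KYSE510, 0 of 9 tested caspases other than CASP2 were called in the authors' DESeq2 test, and 2 had an unadjusted p under 0.05. Of all genes tested in KYSE510, 7.89% were called higher and 10.8% lower. CASP2 was listed with its rise in both lines already known, so no contrast with the other caspases is read from this count. The nearest was CASP14, a caspase of the cornified layer, at −0.71 ± 0.28 with an adjusted p of 0.0612 in the authors' DESeq2 test. PIDD1 and CRADD, the partners of CASP2 in the PIDDosome, were not called in either line. PIDD1 was at −0.17 ± 0.09 in KYSE30 and 0.32 ± 0.19 in KYSE510, and CRADD at 0.54 ± 0.27 and −0.40 ± 0.44, so neither moved with CASP2 in both lines.

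Of 9 genes of the apoptosome and of mitochondrial release, 4 were called higher and 1 lower in KYSE30, and 3 higher and 0 lower in KYSE510. Of the 14 reference genes, 7 and 5 were called higher and 2 and 1 lower, and neither list was tested. The shares over all tested genes were 13.9% higher and 15.7% lower in KYSE30, and 7.89% and 10.8% in KYSE510. CYCS, which encodes cytochrome c, rose by 0.67 ± 0.05 in KYSE30 and by 0.17 ± 0.06 in KYSE510. AIFM1 rose by 0.38 ± 0.07 and 0.34 ± 0.10, and the channel gene VDAC1 by 0.12 ± 0.04 and 0.21 ± 0.04. VDAC3 rose in KYSE30 (0.26 ± 0.05), and APAF1, the scaffold of the apoptosome, fell there (−0.28 ± 0.09). Of the inhibitors of apoptosis, BIRC5 (survivin), which also serves mitosis, rose in both lines by 0.38 ± 0.05 and 0.40 ± 0.09. XIAP rose in KYSE30 (0.28 ± 0.07), and in KYSE510 BIRC3 rose (0.47 ± 0.10) and BIRC6 fell (−0.19 ± 0.06).

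In the death receptor arm, TNFRSF10B (DR5) fell in both lines, −0.29 ± 0.05 and −0.32 ± 0.06. CFLAR, the inhibitor of CASP8, rose in KYSE30 (0.49 ± 0.09) and was at −0.14 ± 0.11 in KYSE510. The adaptor FADD fell in KYSE30 (−0.16 ± 0.05), and the receptor TNFRSF1A was not called at 0.07 ± 0.06 and 0.16 ± 0.07. Among genes of MCL1 and BH3-only protein turnover, the ubiquitin ligase HUWE1 (MULE) was at 0.01 ± 0.03 in KYSE30 and fell in KYSE510 (−0.18 ± 0.03). The deubiquitinase USP9X also fell in KYSE510 (−0.16 ± 0.05). BTRC rose in KYSE30 (0.37 ± 0.08), and FBXW7 was not called.

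Of 9 transcription factors known to act on BH3-only genes, 2 were called lower in both lines. Of all tested genes, 15.7% were called lower in KYSE30 and 10.8% in KYSE510, and the share lower in both was not computed. TP63, a squamous lineage factor, fell by 0.89 ± 0.05 on the log2 scale in KYSE30 and by 0.44 ± 0.04 in KYSE510. DDIT3 (CHOP), a stress factor that induces BCL2L11, BBC3 and TNFRSF10B, was at −1.20 ± 0.19 and −0.59 ± 0.13. Any link between the levels of TP63 or DDIT3 and those of the other genes described here was not tested. E2F1 (0.42 ± 0.08) and ATF4 (0.16 ± 0.04) rose in KYSE30 and were not called in KYSE510. The FOXO genes were not called.

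**Figure D5:**
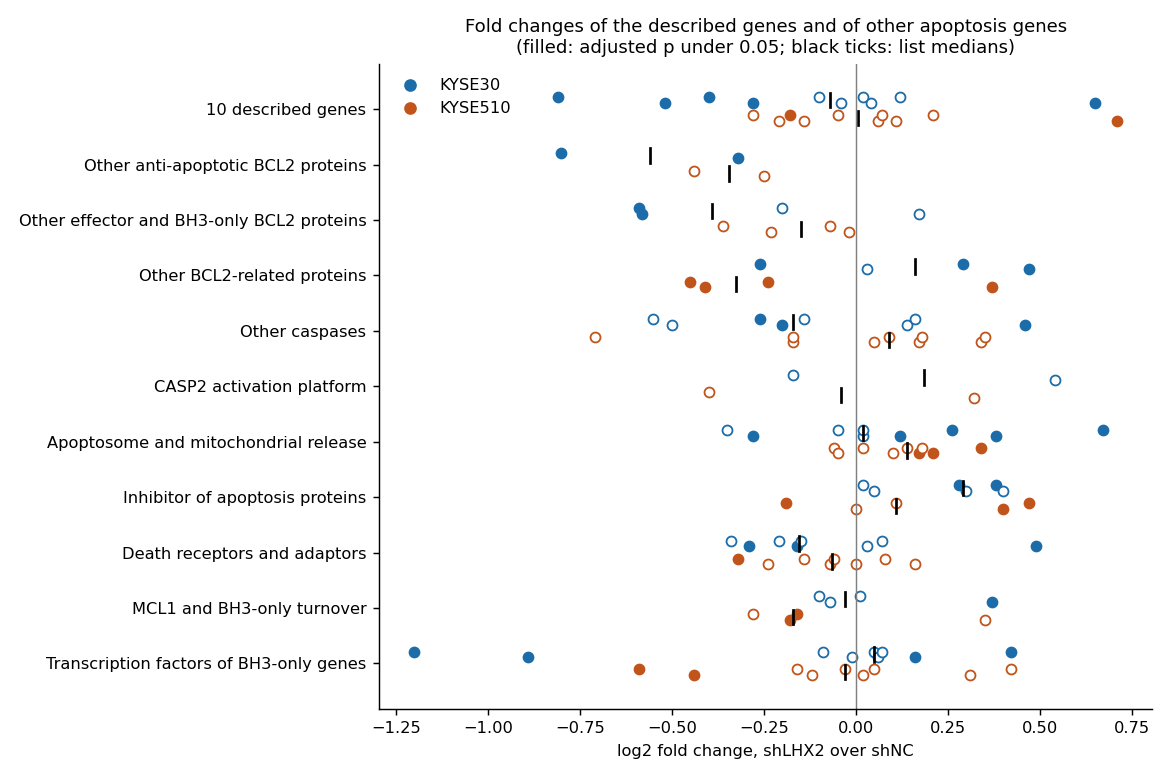
Log2 fold change, shLHX2 over shNC, of the 10 genes and of the tested genes of each other apoptosis list, KYSE30 in blue and KYSE510 in orange, filled where the authors' adjusted p was under 0.05, with black ticks at list medians. CASP2 and CYCS (0.67 in KYSE30) lie furthest to the right and DDIT3 (−1.20) and TP63 (−0.89) furthest to the left.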

How the data were processed

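RNA was extracted with TRIzol and libraries were made with a TruSeq kit. Per the labels, reads were placed on hg38; the sources used here do not name the aligner or counter. The authors' deposited tables, made with DESeq2, hold per gene the mean normalized count (a signal), the log2 fold change and its standard error, the Wald statistic (a score), the p-value and the adjusted p-value. They hold 0 columns per library. The authors' deposited results were therefore used in place of a count model and are named as theirs, and a gene was called at their adjusted p under 0.05.

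Single-read genes gave the size factor of each library. In KYSE510 these factors were then refined by least squares over low genes with a unique set of reads. Whole reads that return a gene's mean, fold change and standard error were unique in 136 of 137 gene and line pairs. Lines were compared by z, the difference of log2 fold changes over its standard error (two-sided, Benjamini-Hochberg over 12311 genes), and levels by exact permutation. The work-back and the z test were tried on simulated data, and the permutation test was not. The permutation p-values were left unadjusted, although an adjustment over the 10 genes had been planned.

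The 10 genes and all lists were chosen with earlier results of these data known. Named were the 10 genes, LHX2 and, per other list, the 4 genes with the smallest adjusted p, except for a result not reported here. APAF1, MIR4435-2HG, ABALON and the markers were named outside that rule, after their values were seen. Positions are from GENCODE 29 and promoters from RefSeq. Tools were Python 3.11.15, numpy 2.4.6, scipy 1.17.1, pandas 2.3.3 and matplotlib 3.10.9.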

Additional observations from a re-analysis of the deposited data

Results flagged for a closer look

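Of 55 other apoptosis genes tested in both lines, 11 responded differently to the knockdown in KYSE510 than in KYSE30 (z test of the difference of log2 fold changes, Benjamini-Hochberg adjusted over 12311 genes), where 11.9% of all genes did. The differences below are KYSE510 minus KYSE30 on the log2 scale. Of these 11, BNIP3 had the widest, −0.92 (adjusted p 1.75e-11), with opposite directions in the lines. CFLAR followed at −0.63 (1.76e-04). CYCS was at −0.49 (6.61e-09) and CASP8 at −0.41 (0.0355), all with a higher value in KYSE30. BCL2L13 was at −0.27 (0.0250), BIRC6 at −0.24 (0.0238) and HUWE1 at −0.19 (6.15e-04). In the other direction, BMF was at 0.57 (0.00648), BAD at 0.51 (0.0428), TP63 at 0.45 (4.26e-10) and CASP4 at 0.38 (0.0439). Each line is a single cell line, so the difference cannot be told apart from any other property in which these lines differ.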

How the results depend on the processing

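The counts of calls changed by more than 1.5 times under a single alternative, an adjusted p under 0.05 together with at least 1.5-fold. Of the 10 genes it left 1 lower in KYSE30 (BBC3) and 0 in KYSE510. Of the other apoptosis genes it left 1 higher and 4 lower in KYSE30, and 0 higher and 1 lower in KYSE510. An adjusted p under 0.01, adjustment over every gene with a p, a mean of at least 100, centring on the median of all genes, and the other scaling and the shNC libraries alone for the levels kept every other count within 1.5 times. No called value changed sign under any alternative run. Among values not called, BAX in KYSE30 went from −0.04 to as high as 0.01 and BIK in KYSE30 from 0.02 to as low as −0.01 with single libraries left out. Leaving out single libraries left 4 to 5 genes at least 1.5-fold apart between the lines. It moved the LHX2 log2 fold change between −1.87 and −1.12 in KYSE30 and between −3.53 and −0.12 in KYSE510, where 1 shLHX2 library holds 1 read. No paired analysis was possible because the tables hold no column per library and the worked-back reads could not be tied to the replicate numbers of the labels. Levels of BCL2L1 and BAX from the shNC libraries alone were −0.31 and −0.43, KYSE510 minus KYSE30 on the log2 scale, in place of −0.23 and −0.35. With 2 libraries a group, standard errors lean on the spread of all genes.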
